A study of Mus musculus with 74 samples.

Results

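Microglia and all other brain cells of the same animals were compared in wild-type mice fed cuprizone. The comparison took every Trem2 +/+ animal on the cuprizone diet and set its microglia library against its other-cell library, so that 6 of the 37 animals and 12 of the 74 libraries of the series entered it. All 6 animals carried both Trem2 alleles and ate chow with 0.2% cuprizone, 3 for 5 weeks (animals 743, 2474 and 9144, of which 2474 was male) and 3 for 12 weeks (animals 1746, 3917 and 8043, of which 8043 was male), and the remaining animals were female. The wider study also held Trem2 heterozygotes, Trem2 knockouts and control chow. From it, 5 Trem2 +/+ animals on control chow (10 libraries, 3 animals at 5 weeks and 2 at 12 weeks) served here as the reference for diet. Perfused brains were dissociated whole, and viable cells were sorted into Cd11b-positive cells, the microglia of the labels, and a pool of everything else. Neither the age of the mice nor their strain is stated in the labels.

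Cuprizone chelates copper and kills mature oligodendrocytes, the cells that wrap axons in myelin. Microglia, the resident macrophages of the brain, engulf the debris, break it down in lysosomes and must store or export the cholesterol that myelin is rich in. Export runs through nuclear receptors that sense sterols, membrane transporters such as Abca1, and lipoprotein particles built on apolipoprotein E, while oligodendrocyte precursors and astrocytes supply the cells and lipids for repair. Cd11b is the product of Itgam and is found on microglia, on macrophages at the borders of the brain and on blood neutrophils and monocytes.

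The 6 microglia libraries held 1167589 to 2556094 counts of 3' tags and the 6 other-cell libraries 1377106 to 2940020. Noncoding genes took 6.30% to 9.80% of a microglia library and 9.65% to 15.9% of an other-cell library, and mitochondrial genes took 1.72% to 4.65% and 4.24% to 8.54%. An RNA integrity number was given for 4 of the 6 libraries of each fraction, from 7.4 to 9.8 in microglia and from 7.3 to 8.5 in the other cells. Among the other-cell libraries, 4 stood apart on the first principal component (44.6% of the variance), animals 743 and 9144 at 30.5 and 38.2 and animals 1746 and 3917 at -24.02 and -32.4. Animals 743 and 9144 also had the highest noncoding shares of their fraction, 13.8% and 15.9%, and animals 1746 and 3917 the lowest, 9.65% and 10.01%. Animal 2474 (5 weeks), at -8.26 on the component, was close to 743 with 13.6%, and animal 8043 (12 weeks) had 12.7%. Every other-cell library at 5 weeks thus had a higher share than every one at 12 weeks. Values below are counts scaled to the total of their library (CPM), and a log2 fold change is microglia over other cells with its standard error. Adjusted p-values are from edgeR's quasi-likelihood test with the animal as a block and Benjamini-Hochberg adjustment over all genes tested. The 6 animals are the replicates, each with 1 library per fraction.

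The fractions differed widely. Of 10881 genes tested, 1956 (18.0%) were higher in microglia and 2419 (22.2%) were lower at an adjusted p under 0.05 (40.2% in either direction), and 5043 genes had an unadjusted p under 0.05. The split was 1779 higher and 2585 lower with DESeq2 size factors and 1589 and 2820 with library totals. The lower genes also had the larger differences, with 831 at least 32-fold lower and 283 at least 32-fold higher. A gene was called specific to a fraction when it passed the test, differed at least 8-fold and had every library of that fraction above every library of the other. By this rule 606 genes (5.57% of those tested) were specific to microglia and 1344 (12.4%) to the other cells. The fractions did not overlap in CPM in 1149 genes with microglia above (10.6%) and in 1992 with the other cells above (18.3%). Protein-coding genes made up 566 of the 606 and 1285 of the 1344. A difference in a pool can come from fewer cells of a type or from less RNA per cell, which cannot be told apart here.

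**Figure D1:**
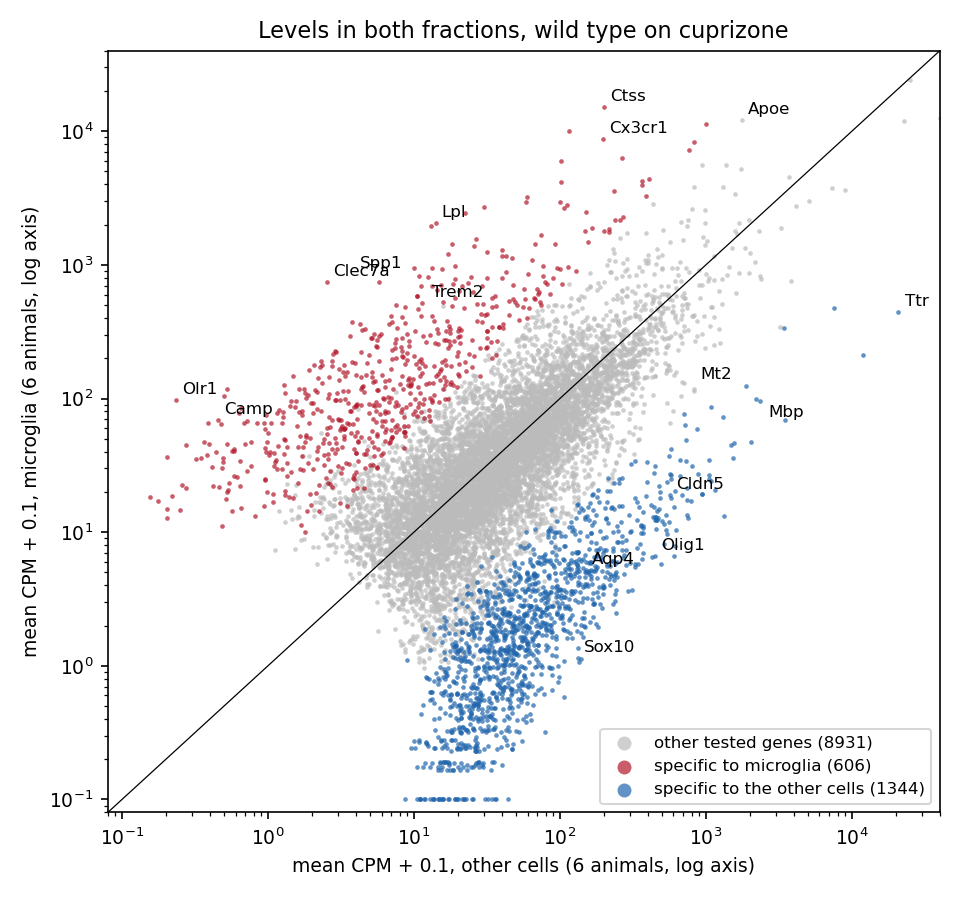
Mean CPM of each tested gene in the other cells (x axis) and in microglia (y axis) over 6 animals, both on log axes after adding 0.1, with the line of equal levels. The 606 genes specific to microglia (red) and the 1344 specific to the other cells (blue) lie in separate bands on either side of the genes that met neither rule (grey).

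The label of the microglia fraction held against its markers. All 12 microglia markers were specific to that fraction, beside 5.57% of all genes tested. Their summed level was 27305 to 36335 CPM in microglia and 415 to 951 CPM in the other cells. Cx3cr1, the receptor for the neuronal chemokine fractalkine, was at 6676 to 11607 CPM (median 8146) in microglia and at 134 to 335 CPM (median 174) in the other cells. The fractions were thus far apart, with a log2 fold change of 5.75 ± 0.29 (adjusted p = 1.3e-11). P2ry12, a purine receptor of resting microglia, was at 531 to 2746 CPM (median 1040.2) against 18.8 to 67.0 CPM (median 22.8). Trem2 itself, the lipid-sensing receptor the series is built on (ENSMUSG00000023992.14, chromosome 17, 48346401 to 48354147, GRCm38.p6), was at 418 to 989 CPM (median 892) in microglia and 4.42 to 18.1 CPM (median 10.4) in the other cells, a log2 fold change of 6.57 ± 0.31 (adjusted p = 1.1e-11). In each of these genes the lowest microglia library lay above the highest other-cell library. The median marker of the list was present in the other cells at 2.03% of its microglial level, from 1.15% for C1qa to 11.3% for Sall1. Itgam, which encodes the sorted protein, was at 736 to 1102 CPM (median 960.3) against 7.82 to 33.2 CPM (median 12.2), which describes the gate and is no finding.

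Other myeloid cells that carry Cd11b were found in the same fraction. Of 8 border macrophage markers 6 were tested and all 6 were higher in microglia, with a median log2 fold change of 5.49 beside -0.09 over all genes tested. Among all genes tested 18.0% were higher and 22.2% lower. Of 8 neutrophil markers 5 were tested and all 5 were higher, with a median of 6.08. Cd163, a scavenger receptor of border macrophages, was at 100.2 to 187 CPM (median 147) in microglia and 2.498 to 7.79 CPM (median 3.55) in the other cells. S100a9, a calcium-binding protein of neutrophils, was at 132 to 383 CPM (median 366) against 1.87 to 8.83 CPM (median 4.43). The summed level of the neutrophil list was 376 to 1081 CPM in microglia and 10.9 to 31.2 CPM in the other cells, and that of the border macrophage list 341 to 879.6 CPM in microglia and 11.2 to 31.7 CPM in the other cells. The neutrophil gene Ly6g had no count in the other cells, and Ltf, Mmp9 and Ly6g did not pass the filter on low counts. Of 5 monocyte markers tested none was higher, and 1 was lower, the matrix proteoglycan gene Vcan at 0 to 3.24 CPM (median 0.873) against 30.6 to 59.5 CPM (median 42.7). No lymphocyte marker passed the filter, and Cd3e, Cd79a and Trac were at 0 in both fractions. The part of neutrophils and border macrophages in the microglia values below was not tested.

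Genes of the program that microglia take on around damage lay with the microglia. All 21 tested genes of the disease-associated list were higher in microglia, 17 of them specific to the fraction, with a median log2 fold change of 4.95 (18.0% of all genes tested were higher). Clec7a, a lectin that binds fungal glucans and marks this state (ENSMUSG00000079293.11, chromosome 6, 129461591 to 129472779), was at 406 to 1139 CPM (median 690.0) in microglia and 0.856 to 5.19 CPM (median 2.01) in the other cells, with a log2 fold change of 8.43 ± 0.40 (adjusted p = 9.6e-12). Lpl, a lipase that acts on lipoproteins (ENSMUSG00000015568.16, chromosome 8, 68880491 to 68907448), was at 1101 to 3201 CPM (median 1989) against 9.44 to 19.4 CPM (median 14.1) (7.38 ± 0.31, adjusted p = 3.7e-12). Both genes were higher in microglia in 6 of 6 animals, and their fractions did not overlap. Cst7, an inhibitor of lysosomal cathepsins, was at 567 to 909.6 CPM (median 765) against 2.04 to 9.37 CPM (median 5.54). Spp1, the secreted glycoprotein osteopontin, was at 382 to 1379 CPM (median 1054) against 2.14 to 24.98 CPM (median 7.84) and had its lowest microglia values in animals 2474 and 743. Itgax, the integrin CD11c, was at 149 to 581 CPM (median 296) against 0.340 to 18.7 CPM (median 1.33). These 3 genes had log2 fold changes of 7.36 ± 0.31, 7.04 ± 0.39 and 7.14 ± 0.59. Gpnmb, a membrane glycoprotein of lipid-laden macrophages, varied widely, at 14.1 to 1041 CPM (median 451) in microglia against 2.18 to 35.5 CPM (median 12.97). Its fractions overlapped, since the microglia of animal 2474 held only 14.1 CPM, and the log2 fold change of 4.83 ± 0.61 still passed (adjusted p = 4.0e-06).

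The largest differences toward microglia in the whole comparison included surface and secreted proteins of macrophages. The 12 named by size were Olr1, Mmp12, Pdcd1, Cd72, Siglecf, Fgr, Camp, Ptger4, Ccl6, Il1rn, Themis2 and Lpl. Only genes without overlap between the fractions could enter this choice, so their separation is no separate result. Olr1, the receptor for oxidised low-density lipoprotein, was at 25.4 to 204 CPM (median 89.2) in microglia and 0 to 0.461 CPM (median 0) in the other cells, where its 2 counts over 6 libraries give a ratio of 725 with a counting interval of 145 to 4333. Mmp12, the macrophage elastase (ENSMUSG00000049723.14, chromosome 9, 7344381 to 7369499), was at 61.0 to 179 CPM (median 107) against 0 to 1.04 CPM (median 0.444). Ccl6, a chemokine of macrophages, was at 1541 to 2513 CPM (median 1833) against 9.67 to 21.3 CPM (median 11.3), with a log2 fold change of 7.49 ± 0.28 (adjusted p = 1.4e-12). Pdcd1, the inhibitory receptor PD-1 better known from T cells, was at 12.1 to 71.2 CPM (median 35.1) in microglia, while its other-cell libraries held 1 count in all. Cd72, an inhibitory lectin receptor, was at 51.3 to 156 CPM (median 105) against 0 to 1.25 CPM (median 0.230). Camp, the antimicrobial peptide of neutrophil granules, was at 43.8 to 107 CPM (median 69.2) against 0 to 0.726 CPM (median 0.444) and stands on the neutrophil list.

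**Figure D2:**
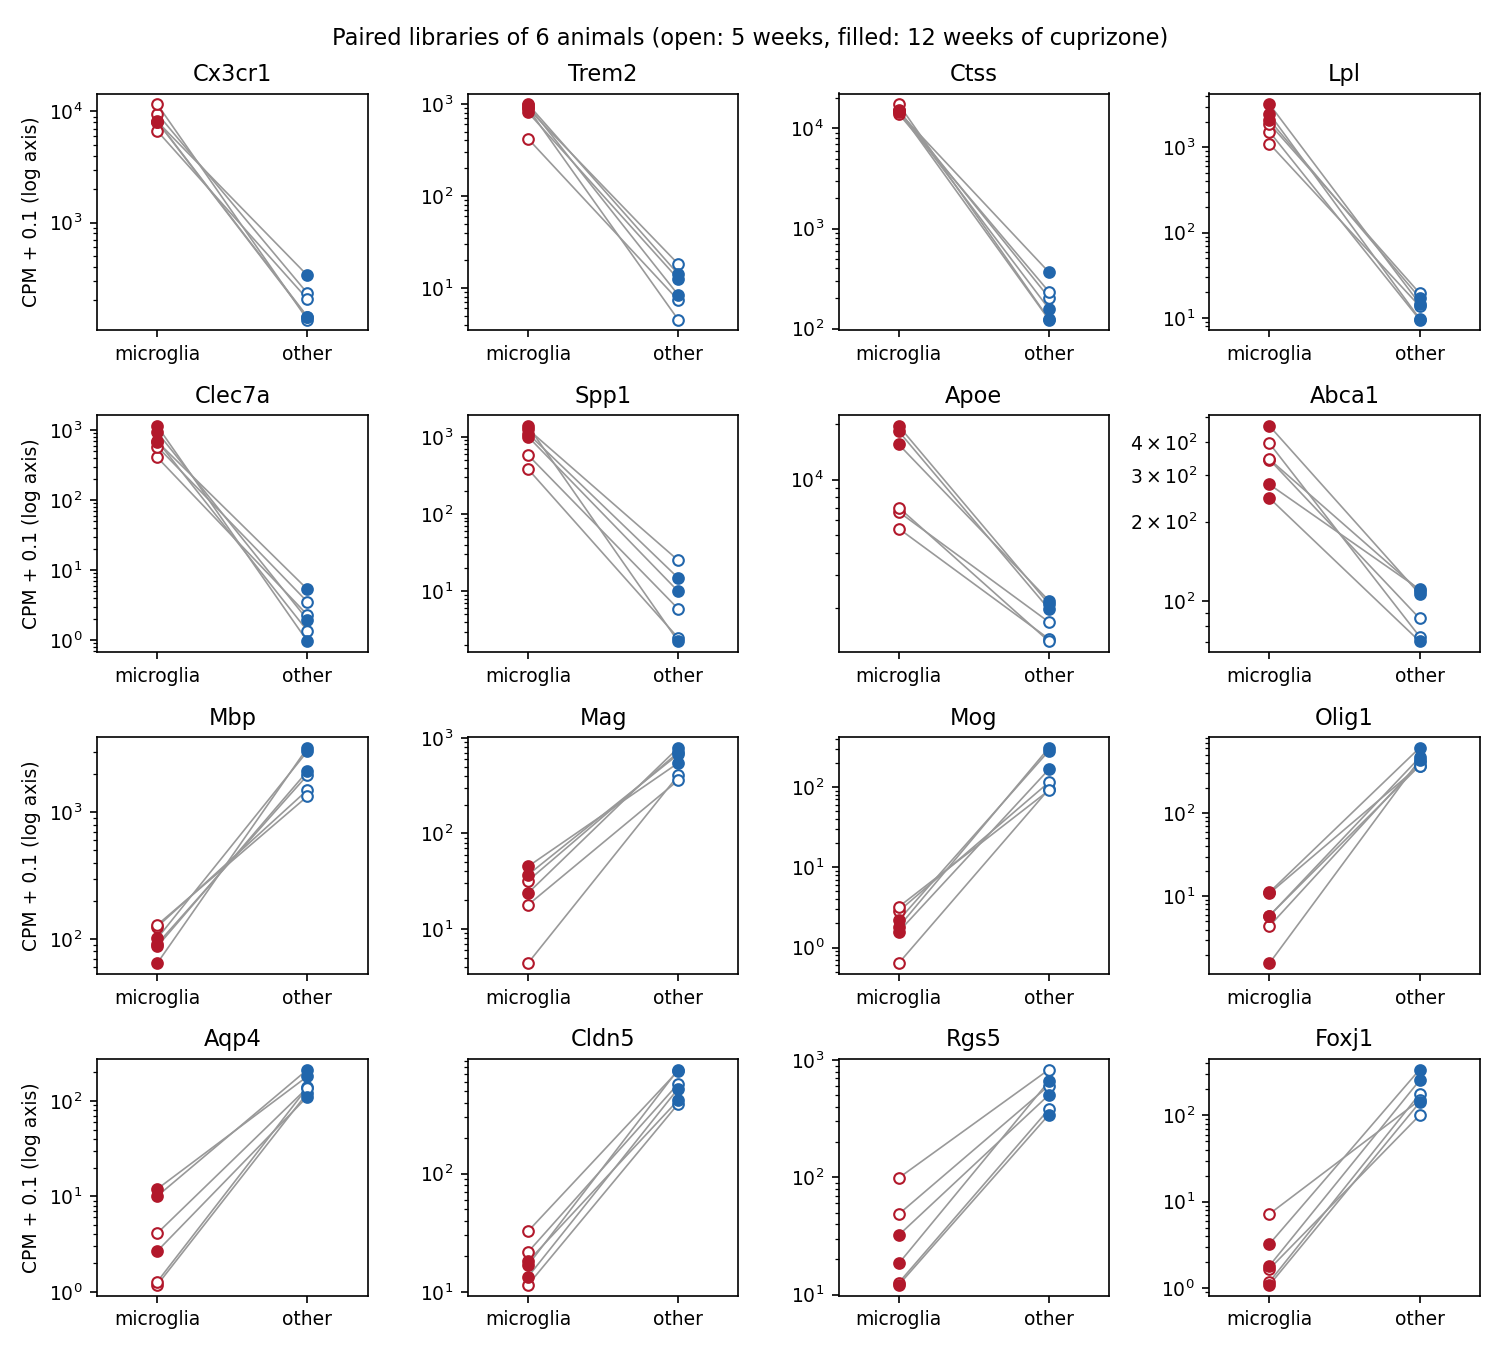
CPM of 16 named genes in the 2 libraries of each animal (log axes after adding 0.1), with a line joining the libraries of 1 animal, open points at 5 weeks and filled points at 12 weeks. In every panel the fractions do not overlap, from Cx3cr1 to Abca1 with microglia above and from Mbp to Foxj1 with the other cells above.

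Most genes for taking up and exporting myelin lipid were higher in microglia. Of all genes tested 18.0% were higher and 22.2% lower, the shares beside which the next counts stand. Of 13 tested receptors for debris and lipid 11 were higher in microglia and none was lower, with a median log2 fold change of 5.39. Of 13 tested genes of cholesterol efflux and esterification 10 were higher and none was lower (median 2.13). Apoe, the main apolipoprotein of the brain (ENSMUSG00000002985.16, chromosome 7, 19696109 to 19699188), was at 5403 to 19571 CPM (median 11281) in microglia and at 1311 to 2186 CPM (median 1819) in the other cells, a log2 fold change of 2.85 ± 0.24 (adjusted p = 1.1e-08). Its fractions did not overlap. Ch25h, which makes 25-hydroxycholesterol, was at 61.8 to 245 CPM (median 94.8) against 0 to 9.21 CPM (median 0.831) (5.79 ± 0.70). Apoc1, a small apolipoprotein encoded beside Apoe, was at 8.64 to 60.7 CPM (median 34.1) against 0 to 2.72 CPM (median 1.05) (5.39 ± 0.82). The transporter gene Abca1 was at 246 to 462 CPM (median 345) against 70.1 to 111 CPM (median 95.9) (2.13 ± 0.23, adjusted p = 3.3e-07), and Mylip, which marks lipoprotein receptors for degradation, was at 327 to 517 CPM (median 437) against 19.6 to 42.8 CPM (median 26.8) (4.16 ± 0.27). Npc1, which carries cholesterol out of lysosomes, did not pass the test at a log2 fold change of 0.54, nor did Scarb1 and Nr1h2. Nr1h3 and Lcat did not pass the filter.

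Of 17 tested genes of cholesterol synthesis 8 were lower in microglia and 1 was higher, with a median log2 fold change of -1.61 (22.2% of all genes tested were lower). Sqle, which oxidises squalene at a controlled step of the pathway, was at 0 to 7.56 CPM (median 1.33) in microglia and 27.5 to 69.1 CPM (median 44.0) in the other cells, a log2 fold change of -4.68 ± 0.83 (adjusted p = 1.1e-04). The sterol oxidase gene Msmo1 was at 37.7 to 55.6 CPM (median 44.5) against 150.3 to 219.6 CPM (median 160.1). Neither of these genes overlapped between the fractions. The gene that went the other way was Ebp, a sterol isomerase, at 36.0 to 105 CPM (median 83.4) against 14.4 to 69.0 CPM (median 46.7) (adjusted p = 0.038), with overlapping fractions. The call of Ebp was lost without animal 743, 2474, 9144 or 8043 and under both other scalings, with an adjusted p of 0.017 to 0.29 over 16 alternatives. Of 16 tested genes of fatty acid synthesis and lipid droplets 7 were lower and none was higher. Scd1, the desaturase that makes oleic acid, was at 0.493 to 12.0 CPM (median 1.45) against 65.4 to 160.4 CPM (median 103) (-5.16 ± 0.61), and Fabp7, a fatty acid carrier of astrocytes and precursors, at 5.48 to 52.1 CPM (median 21.2) against 313 to 2614 CPM (median 666) (-5.17 ± 0.77). Plin2, the coat protein of lipid droplets, did not pass the test, at a log2 fold change of 1.62.

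The degradative and immune groups leaned strongly to microglia. Of 28 tested lysosomal genes 27 were higher and none was lower (median 3.70), and their summed level was 49765 to 56711 CPM in microglia and 3806 to 5311 CPM in the other cells. Ctss, a cathepsin of antigen-presenting cells (ENSMUSG00000038642.10, chromosome 3, 95526786 to 95556403), was at 13969 to 17424 CPM (median 15021) against 123 to 366 CPM (median 181) (6.58 ± 0.30, adjusted p = 9.5e-12). Grn, the progranulin that keeps lysosomes working, was at 1717 to 4512 CPM (median 2472) against 63.3 to 132 CPM (median 99.7). Called log2 fold changes within the list ran from 6.58 for Ctss down to 1.34 for Psap, the saposin precursor, and 1.09 for Ctsf. Of 9 tested complement genes 8 were higher and none was lower (median 6.06). C1qa, a chain of the first complement component, was at 4038 to 17239 CPM (median 8597) against 70.7 to 159 CPM (median 114), and C3ar1, the receptor of the C3a fragment, at 316 to 426 CPM (median 371) against 0 to 8.83 CPM (median 3.49). Of 14 tested genes of antigen presentation 13 were higher and none was lower (median 3.47). H2-Ab1, a class II chain, was at 125 to 985 CPM (median 148) against 3.85 to 36.2 CPM (median 8.03), and its highest value came from the microglia of animal 9144. Of 13 tested interferon response genes 3 were higher and none was lower (median 0.95), a share close to the 18.0% of all genes. Ifi27l2a was the most unequal of them, at 63.1 to 271 CPM (median 141) against 12.3 to 34.97 CPM (median 25.9).

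Of 13 tested chemokine genes 10 were higher in microglia and 2 were lower, beside 18.0% and 22.2% of all genes tested. Ccl3, a ligand that draws myeloid and T cells, was at 454 to 1216 CPM (median 639.9) in microglia and 7.37 to 26.9 CPM (median 9.13) in the other cells. Cxcl12, made by vascular cells, was at 6.26 to 48.6 CPM (median 12.4) against 541 to 933 CPM (median 672) (-5.29 ± 0.34), and Cx3cl1, the ligand of the microglial receptor Cx3cr1, at 0 to 4.45 CPM (median 0.428) against 31.3 to 117 CPM (median 66.1) (-5.98 ± 0.72). Both ligands lay on the opposite side from Cx3cr1 and Ccl3, with no overlap between fractions. Of 12 tested cytokines and growth factors 7 were higher and 3 were lower, the latter a share near that of all genes. Tnf was at 166 to 348 CPM (median 206) against 1.28 to 5.19 CPM (median 2.57), and Il1b at 602 to 898 CPM (median 662) against 2.996 to 28.3 CPM (median 6.67), both classic inflammatory cytokines of myeloid cells. Il33, an alarmin kept in glial nuclei, was at 0.782 to 12.0 CPM (median 3.25) against 75.6 to 229.8 CPM (median 179.6) (-5.17 ± 0.54), Tgfb2 at 1.17 to 40.3 CPM (median 6.47) against 59.9 to 182 CPM (median 121), and the angiogenic factor gene Vegfa at 12.9 to 95.9 CPM (median 25.4) against 70.0 to 296 CPM (median 164), with overlap in Vegfa alone of these 3. Of 22 immediate early and heat shock genes, which also respond to tissue handling, 19 were higher in microglia and 1 was lower (median 3.25). Fos was at 1005 to 4266 CPM (median 2075) against 103 to 374 CPM (median 295), and the small heat shock gene Hspb1 at 0 to 8.01 CPM (median 3.98) against 15.6 to 51.6 CPM (median 22.1). Hspb1 lost its call without animal 2474, 3917 or 8043 (adjusted p of 2.3e-04 to 0.15 over 16 alternatives), and Vegfa without animals 743 and 9144 together (up to 0.074).

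**Figure D3:**
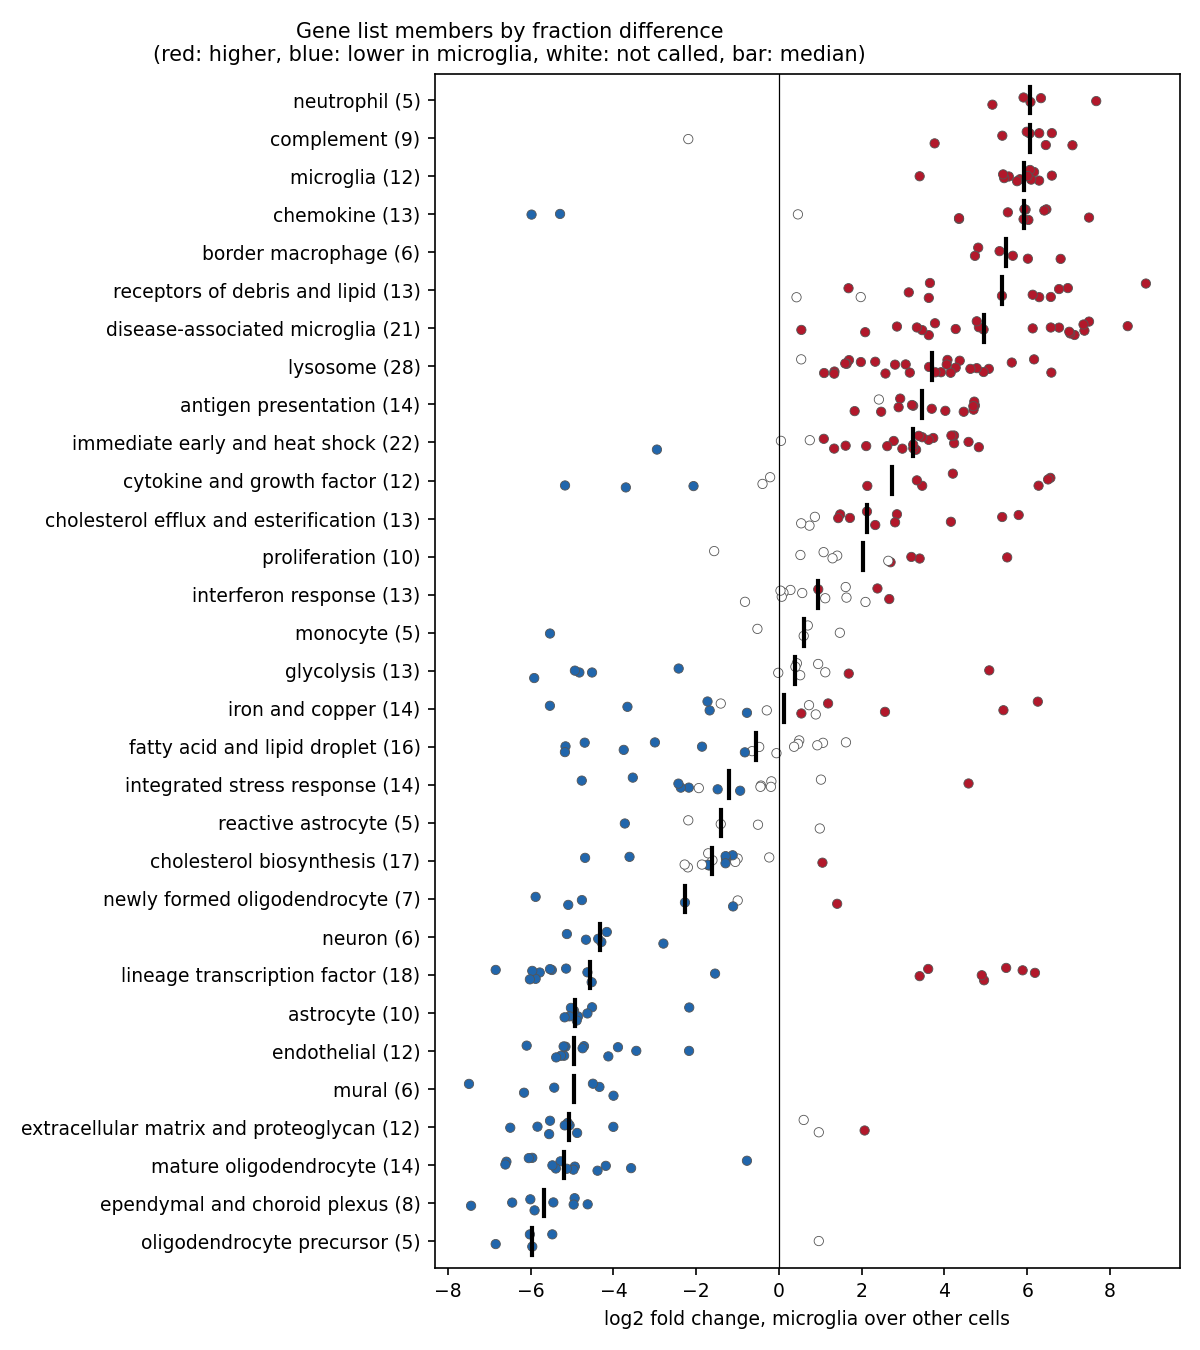
Log2 fold change (x axis, microglia over other cells) of each tested member of the gene lists with at least 3 tested members, with the number tested in brackets and a bar at the median. Points are red where higher in microglia, blue where lower and white where the adjusted p did not pass 0.05, and lists run from the oligodendrocyte precursor list (median -5.96) at the bottom to the neutrophil list (median 6.08) at the top.

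Transcription factors that set cell lineage separated the pools. All 18 tested passed, 7 higher and 11 lower in microglia, beside 18.0% and 22.2% of all genes tested (40.2% in either direction). The higher ones included Spi1, Irf8, Runx1, Cebpa, Mef2c and Sall1, which are used by myeloid cells. Spi1, which encodes the myeloid master regulator PU.1, was at 130.4 to 185 CPM (median 159.9) in microglia and 1.71 to 4.995 CPM (median 3.15) in the other cells (5.89 ± 0.39, adjusted p = 3.0e-10). Irf8, a partner of PU.1, was at 501 to 856 CPM (median 680.2) against 5.44 to 46.8 CPM (median 20.1). Sall1, a factor of microglial identity, was at 555 to 1031 CPM (median 840.5) against 57.1 to 129 CPM (median 85.0), the smallest difference of the 7. The 11 lower factors included Sox10, Olig1, Olig2, Nkx2-2 and Myrf of the oligodendrocyte lineage, Sox9 and Nfia of astrocytes, Sox17 and Erg of endothelium, Foxc1 of mural and meningeal cells, and Neurod1 of neurons. Sox10 had the largest difference of them, at 0 to 3.24 CPM (median 0.675) against 70.1 to 169 CPM (median 143) (-6.84 ± 0.56, adjusted p = 5.7e-09).

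Since Spi1 was microglial, RefSeq promoters (250 bases before to 50 after a start site, GRCm38.p6) were searched on both strands for GAGGAAGT, an ETS site of the PU.1 type. A RefSeq promoter was matched for 462 of the 606 genes specific to microglia (76.2%), 1000 of the 1344 specific to the other cells (74.4%) and 8501 of the 10881 tested (78.1%). With fewer than 80% matched the comparison of the sets is void, and the shares describe only the matched genes. The site stood in 61 of the microglia-specific genes (13.2%), in 21 of the other-cell-specific genes (2.10%), in 3.85% of tested genes and in 3.69% of all 27025 genes in the table. A core of the SOX type, ACAAAG, stood in 20.3%, 20.6%, 16.2% and 21.0% of the same groups, and the E-box TCACGTGA of lysosomal genes in 2.17%, 1.30%, 2.39% and 1.12%. The 3 motifs were counted apart, whether or not they overlapped. Of 60 named microglia-specific genes with a promoter 7 held the ETS site (Cd72, Ctss, Mmp12, Pf4, Pianp, S100a8 and Spp1), and of 55 named other-cell-specific genes 1 did (Ccdc153, of motile cilia). The promoters of 3 microglial genes of different roles and of Ccdc153 are shown 5' to 3' on the strand of the gene, with the site, or its reverse complement ACTTCCTC, in capitals.
Ctss (chr3:95526536-95526835, plus strand): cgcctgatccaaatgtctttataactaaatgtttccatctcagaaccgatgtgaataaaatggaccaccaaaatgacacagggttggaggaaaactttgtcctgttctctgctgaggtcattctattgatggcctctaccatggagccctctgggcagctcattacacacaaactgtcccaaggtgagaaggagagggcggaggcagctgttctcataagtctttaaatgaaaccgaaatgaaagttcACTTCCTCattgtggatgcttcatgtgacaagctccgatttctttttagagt
Spp1 (chr5:104434861-104435160, plus strand): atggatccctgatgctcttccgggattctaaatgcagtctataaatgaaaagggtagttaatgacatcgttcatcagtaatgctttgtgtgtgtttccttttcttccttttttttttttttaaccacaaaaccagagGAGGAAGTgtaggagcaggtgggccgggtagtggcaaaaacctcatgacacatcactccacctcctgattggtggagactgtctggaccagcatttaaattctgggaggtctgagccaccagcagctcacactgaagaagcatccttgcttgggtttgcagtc
Mmp12 (chr9:7344147-7344446, plus strand): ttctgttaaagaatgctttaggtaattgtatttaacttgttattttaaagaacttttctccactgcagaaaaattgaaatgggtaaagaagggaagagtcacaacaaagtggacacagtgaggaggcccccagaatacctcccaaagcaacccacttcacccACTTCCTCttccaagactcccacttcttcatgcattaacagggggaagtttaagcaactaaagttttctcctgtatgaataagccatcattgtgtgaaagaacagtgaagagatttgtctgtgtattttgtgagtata
Ccdc153 (chr9:44240427-44240726, plus strand): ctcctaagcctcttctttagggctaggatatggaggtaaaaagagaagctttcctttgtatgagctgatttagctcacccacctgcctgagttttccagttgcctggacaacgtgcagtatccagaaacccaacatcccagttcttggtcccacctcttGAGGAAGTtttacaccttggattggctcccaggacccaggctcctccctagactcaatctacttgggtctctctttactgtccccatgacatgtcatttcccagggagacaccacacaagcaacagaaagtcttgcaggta
A match describes these letters alone. Binding of the factor was not measured.

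The pool of other cells still held the oligodendrocyte lineage after cuprizone. All 14 markers of mature oligodendrocytes were lower in microglia, 13 of them specific to the other cells (median -5.20), and their summed level was 838 to 1348 CPM in microglia and 9507 to 31238 CPM in the other cells. Of all genes tested 22.2% were lower, 18.0% higher and 12.4% specific to the other cells, shares that also stand beside the counts below. Mbp, the myelin basic protein gene, was at 64.4 to 129 CPM (median 96.1) in microglia and 1339 to 3234 CPM (median 2041) in the other cells (-4.18 ± 0.29, adjusted p = 7.2e-10). Mag, an adhesion protein of the inner myelin wrap, was at 4.30 to 45.0 CPM (median 27.8) against 359 to 786 CPM (median 608) (-4.38 ± 0.33), and Mog, a late myelin protein, at 0.540 to 3.11 CPM (median 1.90) against 90.5 to 307 CPM (median 140.0) (-6.04 ± 0.44). None of these 3 genes overlapped between the fractions. The median marker of this list was present in microglia at 2.41% of its other-cell level, from 0.747% for Ugt8a to 52.1% for the transferrin gene Trf, which was at 420.1 to 996 CPM (median 574) against 966 to 1495 CPM (median 1266) and lost its call without animal 743 (adjusted p up to 0.18 over 16 alternatives). Of 5 tested precursor markers 4 were lower and none was higher, with Olig1 at 1.48 to 11.1 CPM (median 5.77) against 373 to 610.3 CPM (median 423). Pdgfra, the receptor that defines precursors, did not pass the filter, at 0 to 0.856 CPM in microglia and 3.12 to 25.6 CPM in the other cells. Of 7 tested markers of newly formed oligodendrocytes 5 were lower and 1, the calcium channel gene Itpr2, was higher, at 207 to 310.5 CPM (median 286) against 87.4 to 165 CPM (median 119.7). Bcas1, which marks cells that start to myelinate, was at 1.17 to 18.8 CPM (median 5.58) against 151 to 462 CPM (median 273), and Gpr17, a receptor of committed precursors, at 0.391 to 3.11 CPM (median 0.793) against 8.71 to 73.7 CPM (median 43.6).

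Astrocytes, vessels, cilia and some neuronal RNA made up the rest of the pool. All 10 tested astrocyte markers, 12 endothelial markers, 6 mural markers, 6 neuronal markers and 8 markers of ependyma and choroid plexus were lower in microglia, with medians of -4.92, -4.95, -4.96, -4.33 and -5.68. Aqp4, the water channel of astrocyte endfeet, was at 1.08 to 11.8 CPM (median 3.29) in microglia and 111 to 213 CPM (median 138) in the other cells (-4.95 ± 0.45, adjusted p = 2.8e-08). Cldn5, the tight junction protein of brain endothelium, was at 11.3 to 32.5 CPM (median 17.4) against 390.1 to 762 CPM (median 552) (-4.71 ± 0.26). Rgs5, a marker of pericytes, was at 12.0 to 98.8 CPM (median 25.2) against 343 to 833 CPM (median 557). These 3 genes did not overlap between fractions. Foxj1, the master factor of motile cilia, was at 0.986 to 7.12 CPM (median 1.64) against 100.3 to 339.9 CPM (median 164). The summed level of the ependymal and choroid list was 178 to 835 CPM in microglia and 16024 to 29623 CPM in the other cells. Little of that sum came from Foxj1 or from its fellow members Ccdc153, Tmem212 and Rarres2. In the other cells these 3 reached at most 77.0, 108 and 40.7 CPM. That of the neuronal list was 23.98 to 429.8 CPM in microglia and 827 to 6999 CPM in the other cells. Meg3, a noncoding RNA of neurons, was at 587 to 6149.9 CPM (median 758) in the other cells and was highest in animals 743 and 9144. Gfap, the filament of reactive astrocytes, did not pass the filter, at 0 to 1.08 CPM in microglia and 2.60 to 18.9 CPM in the other cells. With 2 of the 6 tested neuronal markers specific by the rule above, the neuronal list was the least separated of these. Of 5 tested reactive astrocyte genes 1, a share near the 22.2% of all genes tested, Serpina3n, was lower in microglia, at 0 to 9.18 CPM (median 1.38) against 7.99 to 72.4 CPM (median 33.3), a call lost without animal 2474, 3917 or 8043 (adjusted p of 5.1e-06 to 0.14 over 16 alternatives). Of 12 tested matrix genes 9 were lower, the proteoglycan gene Ncan most, at 0 to 1.71 CPM (median 1.06) against 47.5 to 131 CPM (median 78.1). Sparc, a secreted matrix modifier, was higher, at 1284 to 2412 CPM (median 1834) against 408 to 608 CPM (median 517) (2.07 ± 0.22).

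Some genes of the other cells had no count in any of the 6 microglia libraries, 35 of the 10881 tested. Against a floor of 3 counts over the 6 libraries, Unc5c, a netrin receptor, was at least 179-fold higher in the other cells, where it was at 11.6 to 78.4 CPM (median 40.1). In the same way Lrrc4b, a synaptic adhesion gene, was at least 136-fold higher, Myl9, a light chain of smooth muscle myosin, at least 137-fold, Rfx4, a factor of brain development, at least 119-fold, and Dnah9, a motor of cilia, at least 117-fold. The remaining 7 of the 12 largest held 1 to 3 counts in microglia, so that their ratios rest on very few tags. Among them Unc13c, a priming factor of synaptic vesicles, was at 44.7 to 127 CPM (median 77.6) in the other cells, with an other-cell excess whose counting interval was 97.1 to 1383-fold. Clec14a, an endothelial lectin, was at 23.5 to 64.0 CPM (median 51.7) with an interval of 71.9 to 2159.8-fold, and Igfbp3, a binding protein of insulin-like growth factors, at 18.9 to 89.8 CPM (median 33.8) with an interval of 86.5 to 2596-fold. Each of these intervals covers counting error only.

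Of 14 tested genes of the integrated stress response 7 were lower in microglia and 1 was higher (median -1.21), beside 22.2% and 18.0% of all genes tested, the shares against which the counts that follow stand. Trib3, a pseudokinase induced by the response, was at 0 to 7.12 CPM (median 1.12) in microglia and 21.4 to 94.2 CPM (median 59.9) in the other cells (-4.76 ± 0.79, adjusted p = 5.6e-05). Slc7a11, the cystine importer, was at 9.42 to 25.4 CPM (median 12.7) against 123 to 342 CPM (median 202), and Atf5, a factor of the response, at 34.8 to 223 CPM (median 113) against 509.7 to 1076 CPM (median 658). Atf3, also an immediate early gene, went the other way, at 647 to 1179.9 CPM (median 733) against 27.4 to 53.1 CPM (median 41.1) (4.58 ± 0.25). Atf4, the central factor, was alike in both fractions, with a log2 fold change of -0.19. Of 14 tested iron and copper genes 5 were higher and 5 were lower. Slc11a1, the metal pump of phagosomes, was at 75.9 to 167 CPM (median 99.7) against 0 to 3.85 CPM (median 1.66), while the metallothionein gene Mt2 was at 64.9 to 164 CPM (median 129) against 1236 to 3079.6 CPM (median 1756) and Mt3 at 0 to 3.94 CPM (median 0.985) against 39.9 to 108 CPM (median 66.0). The median of this list was 0.13 with TMM and 0.00 and -0.14 under the other 2 scalings tried, which moved the median of all genes by -0.12 and -0.26, so that it has no firm sign. Of 13 tested glycolysis genes 2 were higher, a share near that of all genes, and 5 were lower. Hk2, the inducible hexokinase, was at 907 to 1696 CPM (median 1046) against 21.1 to 78.9 CPM (median 36.9), while Pfkp, a phosphofructokinase, was at 0 to 17.4 CPM (median 0.532) against 36.9 to 85.5 CPM (median 61.0) and the neuronal enolase Eno2 at 0 to 1.71 CPM (median 0) against 9.42 to 45.0 CPM (median 16.3). Gapdh, Pgk1, Pgam1 and Eno1 did not pass the filter, and genes with near-identical copies, Ftl1 among the iron genes, are uncertain in these counts. Of 10 tested proliferation genes 4 were higher and none was lower, with Cdk1 at 27.1 to 92.1 CPM (median 54.6) against 0.624 to 16.0 CPM (median 9.25) and Mki67 at 2.57 to 61.0 CPM (median 15.9) against 0 to 12.5 CPM (median 2.96), the latter overlapping. Mki67 lost its call without animal 743, 2474, 9144 or 3917 (adjusted p up to 0.22 over 16 alternatives).

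A total of 1008 genes (9.26% of those tested) were alike in both fractions, with the 95% interval of the log2 fold change within -1 and 1. Of these 3 still passed the test, among them Fth1, the ferritin heavy chain, which is also counted as higher in the disease-associated list (log2 fold change 0.54). The list members among the 1008 also included Scarb2, a lysosomal receptor, the glycolysis genes Pkm and Ldhb, and Slc31a1, the copper importer. A further 5501 genes neither passed the test nor met this rule, so that their equality is not shown.

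The fraction differences at 5 weeks (acute demyelination) and 12 weeks (chronic demyelination) were largely shared. Of 13566 genes tested in a fit with a term per week, 1746 (12.9%) were higher and 2128 (15.7%) lower in microglia at 5 weeks (28.6% in either direction), and 1684 (12.4%) and 2148 (15.8%) at 12 weeks. Of the higher genes 1230 were called at both times, 70.4% of those at 5 weeks and 73.0% of those at 12 weeks, and of the lower genes 1566, 73.6% and 72.9%. In the test of the difference itself 32 genes (0.236%) had a larger microglial excess at 12 weeks and 61 (0.450%) a smaller one (0.686% in all), with 1215 genes at an unadjusted p under 0.05. The 12 libraries leave 4 residual degrees of freedom, and the fit drew each gene's spread wholly from the trend over all genes, so these adjusted p-values rest on that trend. C1qa was at 7037, 6338 and 4038 CPM in the microglia of the 3 animals at 5 weeks and 10156, 17239 and 15150.1 CPM at 12 weeks, without overlap, and at 159, 70.7 and 143 and 77.9, 85.7 and 152 CPM in the other cells, with overlap (interaction 1.53 ± 0.38, adjusted p = 0.015). Itgax was at 149, 164 and 258 and 581, 467 and 334 CPM in microglia, also without overlap, and at 2.90, 0.340 and 18.7 and 1.28, 1.38 and 1.04 CPM in the other cells. Its interaction was 3.11 ± 0.70 (adjusted p = 0.0052). Without animals 743 and 9144, which leaves animal 2474 alone at 5 weeks, the Itgax interaction was -0.16. The other-cell value of that animal, 0.340 CPM, rests on very few tags. Of the 12 microglia markers 2, both of resting microglia, had a smaller excess at 12 weeks and 1, C1qa, a larger one. The rest of that list had no called week interaction. P2ry12 was at 1566, 2746 and 1353 CPM in microglia at 5 weeks and 531, 585 and 727 CPM at 12 weeks, and at 36.3, 20.7 and 24.4 and 18.8, 21.2 and 67.0 CPM in the other cells (interaction -1.75 ± 0.43, adjusted p = 0.014). Tmem119, a membrane protein of microglia, was at 707, 662 and 379 and 162, 268 and 317 CPM in microglia and at 10.2, 4.76 and 8.12 and 21.4, 6.45 and 16.1 CPM in the other cells (-2.12 ± 0.52, adjusted p = 0.015). Lgmn, an endopeptidase of lysosomes, had the same sign, at 1478, 3139 and 1586 and 1081, 434 and 898 CPM in microglia. In the other cells Lgmn was at 33.4, 38.4 and 26.2 CPM at 5 weeks and 118, 115 and 76.8 CPM at 12 weeks, higher at 12 weeks without overlap (-3.02 ± 0.42, adjusted p = 2.5e-09). In these 3 genes the microglia of the 2 times did not overlap. Apoe was at 5403, 6665 and 7034 and 18300.1, 19571 and 15527 CPM in microglia. Its microglia did not overlap between weeks, and its interaction did not pass (0.96 ± 0.36, adjusted p = 0.27).

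In this interaction the weeks could not be told apart from differences between the other-cell libraries. Animals 743 and 9144 (5 weeks) and 1746 and 3917 (12 weeks) lay at opposite ends of the principal component and of the noncoding share given above. With that share as a covariate 1 gene passed, without the animal block 6 genes, and with DESeq2 342 genes. The covariate takes up 1 of the 4 residual degrees of freedom, which can lower the count whatever the cause. In the other cells that share also separated the weeks without overlap, so the covariate fit cannot tell the share from the week. Leaving out either pair of animals leaves 1 animal at a week, so no count is given for those fits. On the first principal component of the microglia libraries alone (34.1% of the variance) the weeks did not overlap. They lay at 6.22, 28.2 and 19.3 at 5 weeks and -11.3, -27.5 and -14.9 at 12 weeks. Leaving out 1 animal left 31 called genes without 743, 36 without 9144, 41 without 1746, 29 without 3917, 178 without 2474 and 120 without 8043. Lgmn kept its call in 15 of 17 alternatives, P2ry12 in 10, Tmem119 in 9, Itgax in 8 and C1qa in 7. The largest fitted interactions were of genes with very few counts in some libraries, such as Postn, a matrix protein (log2 7.79), and Mpc1, the pyruvate carrier of mitochondria (log2 -10.38), which was at 0 in libraries of both fractions.

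Against control chow, most fraction differences were already present. In a fit of the 11 wild-type animals 1955 of 13363 genes (14.6%) were higher and 2762 (20.7%) lower in microglia on control chow, against 2034 (15.2%) and 3160 (23.6%) on cuprizone (38.9% in either direction). Of the higher genes 1519 were called on both diets, 74.7% of those on cuprizone and 77.7% of those on control chow, and of the lower genes 2295, 72.6% and 83.1%. The fraction difference itself differed between diets in 27 genes, with a more microglial balance on cuprizone in 23 (0.172%) and a less microglial one in 4 (0.0299%), 0.202% of the genes tested in all, and 723 genes had an unadjusted p under 0.05. Without the animal block 49 genes passed. In 15 of the 27 the fitted difference had opposite signs on the 2 diets, but in 7 of these (Apoe on control chow, and Bbc3, Cxcl14, Fn1, Sh3pxd2b, Fabp5 and Chst2 on cuprizone) it did not pass on 1 of the diets.

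**Figure D4:**
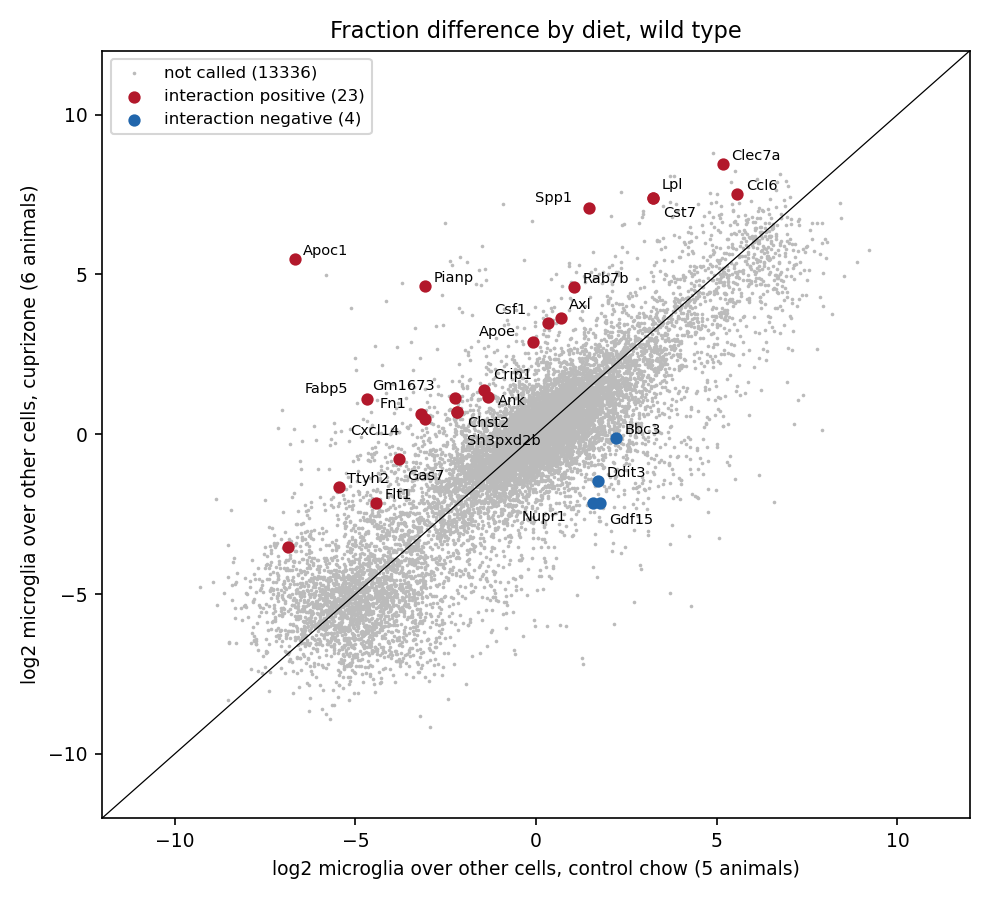
Log2 fold change of microglia over other cells on control chow (x axis, 5 animals) and on cuprizone (y axis, 6 animals) for the 13363 genes tested, with the line of equal differences. The 23 genes with a positive interaction (red) lie above the line and the 4 with a negative one (blue), Ddit3, Gdf15, Nupr1 and Bbc3, below it.

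Of the 23 positive genes 8 stood on the disease-associated list. Of its 21 genes these 8 had a positive interaction and none a negative one, beside 0.172% and 0.0299% of all genes tested. The median fraction difference of all 21 was 3.23 on control chow and 4.97 on cuprizone in this fit. The levels of Apoe overlapped between the pools on control chow, at 2036, 1827, 1147, 1722 and 1157 CPM in the 5 microglia libraries and 1828, 2236, 1779.7, 1643 and 1840.1 CPM in the 5 other-cell libraries. On cuprizone its 6 microglia libraries were at 5403 to 19571 CPM, all above the control microglia, and its other-cell libraries at 1311 to 2186 CPM, overlapping the control ones (interaction 2.96 ± 0.31, adjusted p = 9.4e-07). Lpl was at 45.6, 114, 74.8, 169 and 78.5 CPM in control microglia and at 1101 to 3201 CPM on cuprizone, while the other cells were at 6.54 to 22.3 and 9.44 to 19.4 CPM (interaction 4.16 ± 0.48, adjusted p = 2.8e-06). Spp1 was at 23.5, 1.62, 15.9, 23.7 and 27.8 CPM in control microglia against 382 to 1379 CPM (5.61 ± 0.59, adjusted p = 1.2e-06). The control and cuprizone microglia did not overlap in these 3 genes. Csf1, the growth factor that microglia need to survive, was at 28.5, 49.6, 78.6, 43.0 and 64.2 CPM in control microglia and 59.2, 26.3, 51.4, 66.1 and 35.5 CPM in control other cells, and at 162 to 486 CPM (median 351) and 19.2 to 62.1 CPM (median 37.0) on cuprizone (3.15 ± 0.51, adjusted p = 8.6e-04). Cuprizone microglia also lay above control microglia without overlap in Csf1, Cst7 (4.15 ± 0.49), Clec7a (3.28 ± 0.65), the receptor tyrosine kinase gene Axl (2.98 ± 0.53) and Ccl6 (1.94 ± 0.39), each with a called interaction. Of these, Clec7a lost its call without animal 3917 or 1932 and Ccl6 without 3917, 309 or 1930, both also with limma (adjusted p up to 0.41).

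Fabp5, Apoc1 and Pianp were at or near 0 in control microglia. Fabp5, a fatty acid carrier, was at 0, 7.55, 0, 2.15 and 2.87 CPM in control microglia and 31.2, 71.7, 31.4, 78.5 and 63.9 CPM in control other cells, and at 23.1 to 134 CPM (median 114) and 10.9 to 112 CPM (median 66.2) on cuprizone, where the pools overlapped (5.78 ± 0.88, adjusted p = 4.2e-04). Apoc1 had no count in the 5 control microglia libraries, was at 0, 23.9, 10.47, 3.27 and 1.29 CPM in the control other cells, and was at 8.64 to 60.7 CPM in cuprizone microglia. Its adjusted p was 0.0034, and its fitted interaction is not read as a size because it depends on the prior count. Pianp, a ligand of an inhibitory myeloid receptor, was at 1.27, 0.539, 0, 5.73 and 2.87 CPM in control microglia and 32.9 to 174 CPM (median 77.2) on cuprizone. In the other cells it was at 1.59 to 24.2 CPM on control chow and 1.25 to 11.9 CPM (median 3.53) on cuprizone, so that both pools enter its interaction (7.70 ± 1.11, adjusted p = 1.8e-04). Flt1, a receptor of vascular growth factor best known from endothelium, remained higher in the other cells, at 1069.9 to 1515 CPM (median 1203), and was at 78.0, 99.2, 14.3, 35.1 and 79.5 CPM in control and 80.6 to 438 CPM (median 254) in cuprizone microglia, with overlap (2.29 ± 0.48, adjusted p = 0.038). Fn1, the matrix protein fibronectin, and Cxcl14, a chemokine, had interactions of 3.81 ± 0.82 and 3.57 ± 0.78, with overlap between diets in both pools. The calls of Flt1, Fn1 and Cxcl14 were each lost when any of several single animals was left out (6, 7 and 7 of the 11 animals). The remaining 9 positive genes included Ttyh2, Rab7b, Gm1673, Gas7, Sh3pxd2b, Chst2, Crip1 and Ank, named here after their values were seen.

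The 4 negative genes are known as targets of the stress response to misfolded protein or starvation, or of p53. Ddit3, the factor CHOP, was at 72.3, 44.7, 85.2, 127 and 96.7 CPM in the 5 control microglia libraries and 56.0, 15.9, 30.0, 26.2 and 25.2 CPM in the 5 control other-cell libraries. On cuprizone it was at 46.2 to 82.7 CPM (median 61.7) in microglia and 155 to 299 CPM (median 187) in the other cells. Microglia overlapped between diets, and every other-cell library on cuprizone lay above every one on control chow (interaction -3.16 ± 0.48, adjusted p = 4.2e-04). Gdf15, a secreted stress hormone, was at 1.27, 5.58, 7.14, 1.96 and 12.3 CPM in the control other cells and 88.0 to 181 CPM (median 109) on cuprizone, against 3.30 to 35.1 and 9.34 to 49.3 CPM in microglia (-3.94 ± 0.85, adjusted p = 0.038). Nupr1, a small stress-induced chromatin protein, was at 12.1, 13.5, 1.43, 6.54 and 23.2 CPM in the control other cells and 74.5 to 214 CPM (median 91.4) on cuprizone (-3.70 ± 0.83, adjusted p = 0.043). Bbc3, the cell death protein PUMA, was at 43.3, 45.4, 23.3, 10.47 and 65.8 CPM in the control other cells and 76.0 to 177 CPM (median 129.8) on cuprizone, where the pools were close (-2.33 ± 0.52, adjusted p = 0.043). Ddit3 kept its call in all 20 alternatives, with an adjusted p of at most 0.0026. Gdf15 kept it in 11, Nupr1 in 11 and Bbc3 in 10 of the 20, with adjusted p-values of up to 0.15, 0.15 and 0.22, and leaving out 1 animal was enough to lose each of these 3 (without 743, 2474, 9144, 3917, 8043, 309, 1930 or 1932 for Gdf15, without 743, 1746, 3917, 8043, 309, 5512, 1932 or 9145 for Nupr1, and without 743, 2474, 9144, 1746, 8043, 309, 5512 or 1932 for Bbc3). In all 4 genes the other-cell libraries did not overlap between diets, while microglia did. Of the 15 stress response genes tested for it Ddit3 and Gdf15 had a called interaction, both negative, beside 0.0299% of all genes tested with a negative one.

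**Figure D5:**
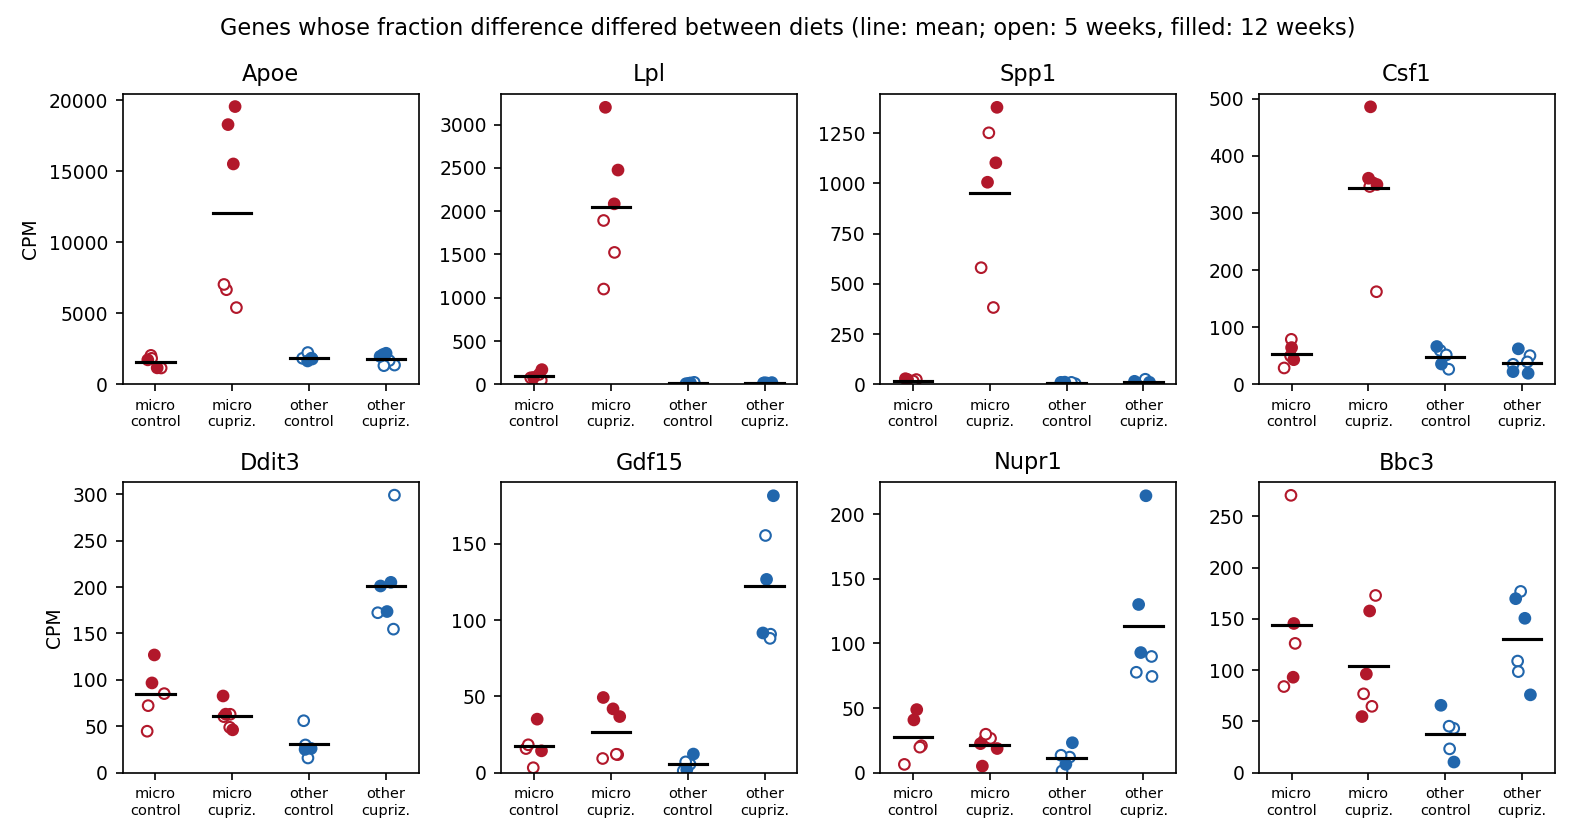
CPM of 8 genes with a called fraction by diet interaction in each library (micro, microglia; other, the remaining cells; cupriz., cuprizone), with a line at the mean, open points at 5 weeks and filled points at 12 weeks. Apoe, Lpl, Spp1 and Csf1 are high in cuprizone microglia, and Ddit3, Gdf15 and Nupr1 are high in the other cells on cuprizone, where Bbc3 reaches the level of microglia.

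With 0.202% of all genes called, a list of cell type markers would hold few or no called diet interactions, and nothing is read from their absence. None of the 14 oligodendrocyte, 12 astrocyte, 8 mural, 9 neuronal or 8 ependymal markers tested passed, nor did any of 12 microglia, 8 border macrophage or 7 neutrophil markers, and 1 of 12 endothelial markers did, Flt1. Of 6 monocyte markers 1 passed, Fn1. The interaction of Mbp was -0.17 ± 0.51 (adjusted p = 1.0), so that a difference in how myelin RNA was split between the pools was not detected, nor was its absence shown. The median microglia marker stood in the other cells at 2.03% of its microglial level on cuprizone and at 1.45% on control chow, and the median oligodendrocyte marker in microglia at 2.41% and 2.77%.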

How the data were processed

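Libraries were made from sorted cells with a low-input kit that counts 1 tag near the 3' end of each polyadenylated transcript, per the labels' protocols. The authors deposited 1 table of raw counts for 49912 genes by 74 libraries. The submitters' processing notes name STAR, MultiQC, FastQC 0.11.5, the build GRCm38.p6 and R 3.4.3, and the counter, its strand setting and any use of molecular identifiers are unknown here, so overlapping genes and near-identical copies are uncertain. Every column matched 1 sample. Gene names and positions came from the GENCODE annotation of GRCm38.p6 by Ensembl identifier.

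The counts as deposited were fitted with edgeR 4.0.16 (R 4.3.3): TMM scaling, genes kept by filterByExpr with a minimum count of 10, the robust quasi-likelihood test and Benjamini-Hochberg adjustment, with calls at an adjusted p under 0.05. The animal was a block, because both fractions came from 1 brain. Over 4479 genes the deviations of an animal's 2 libraries correlated at 0.19, 0.14, -0.0015, 0.043, -0.021 and 0.0075 in animals 743, 2474, 9144, 1746, 3917 and 8043. The week terms came from the same 12 libraries, and the diet terms from 22 libraries of 11 wild-type animals. Libraries on control chow held 1043961 to 1855136 counts in microglia and 1255465 to 2102094 in the other cells. No pair of libraries looked like repeat deposits of 1 library. On simulated counts for the 10881 genes of the main comparison, 76% of genes changed by log2 1.5 and 100% of those changed by log2 3 were recovered, with 5 false calls. For the week interaction (13566 genes) these shares were 5% and 71% with 3 false calls, and for the diet interaction (13363 genes) 28% and 96% with 4. The simulation changed 100 genes at each size, none of them with low counts. It gave every gene the same dispersion and both fractions of an animal a shared effect. The real data differ in these points, so the shares are not the power or error rate of the comparisons above.

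Named genes were a fixed panel, the 12 largest differences in each direction with no overlap between fractions and a mean log2 CPM of 4 or more, up to 6 interactions in each direction with a mean log2 CPM of 3 or more and, for each gene list, up to 4 called members with the largest difference, members called against their list's direction and members called in an interaction. The choice by size skipped predicted genes, pseudogenes and genes that mark sex. Clec7a, annotated as a polymorphic pseudogene, entered through its list. The members, gene lists and rules were chosen with earlier results of these data known. Alternatives were limma 3.58.1, DESeq2 1.42.0, other scalings and filters, no block, and leaving out animals. A few genes are not reported here.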

Additional observations from a re-analysis of the deposited data

Results flagged for a closer look

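In 6 of the 193 named genes 1 of the 6 within-animal differences (log2 of CPM plus 0.5, microglia minus other cells) stood apart by Dixon's criterion. That criterion marks about 1 in 20 groups by chance, so the number is no more than chance would give and nothing is read from it. The value was 0.19 for Gpnmb and -3.87 for Dnah9 in animal 2474, whose Mt2 also stood apart at -5.56. It was -6.49 for Abcc9, a channel subunit of pericytes, in animal 743, 2.82 for Ebp in animal 9144 and 3.11 for H2-Ab1 in animal 3917.

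The fraction difference differed between weeks (log2, 12 minus 5 weeks, edgeR's quasi-likelihood test of the interaction with Benjamini-Hochberg adjustment) in 26 named genes, of which 23 are given. Among microglial and lysosomal genes the interaction was -1.75 for P2ry12, -2.12 for Tmem119, -4.34 for Ch25h, -3.18 for the macrophage mannose receptor gene Mrc1, -3.02 for Lgmn, 1.53 for C1qa, 3.11 for Itgax and 2.41 for Nceh1. It was -1.61 for Fos, 2.84 for Vegfa, -2.62 for Fabp7 and -2.51 for the myelin claudin gene Cldn11. Positive values of the genes chosen by size were 7.79 for Postn, 5.56 for Dkk2, 5.42 for Prrt2, 3.88 for Lrmp and 3.73 for Cpeb1. The negative ones were -10.38 for Mpc1, -8.40 for Aldh5a1, -7.63 for Hs3st3b1, -6.17 for Amn1, -5.22 for Trim59 and -4.93 for Snhg6. The part of the 4 other-cell libraries that stood apart in these values was examined by leaving them out and by the noncoding share as a covariate, and the counts of called genes are given with the results.

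The fraction difference differed between diets (log2, cuprizone minus control, the same test) in 18 named genes. The positive values were 2.96 for Apoe, 4.16 for Lpl, 4.15 for Cst7, 5.61 for Spp1, 1.94 for Ccl6, 7.70 for Pianp, 5.78 for Fabp5, 3.81 for Fn1, 2.29 for Flt1, 3.28 for Clec7a, 2.98 for Axl, 3.15 for Csf1 and 3.57 for Cxcl14. The fitted value of 12.15 for Apoc1 rests on a prior count, since control microglia had no count. The negative values were -3.94 for Gdf15, -3.70 for Nupr1, -3.16 for Ddit3 and -2.33 for Bbc3.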

How the results depend on the processing

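Without the replicate block (week and sex as covariates in place of the animal) the main comparison called 4437 genes against 4375 with the paired fit, and specific genes numbered 1903 against 1950. Calls of the main comparison numbered 3924 to 5605 and specific genes 1903 to 2322 over all alternatives, all within 1.5 times the reported count. Genes alike in both fractions fell outside that range only without animals 743 and 9144 (654 against 1008). The week interaction, 93 genes as reported, called 6 without the replicate block, 342 with DESeq2, 29 with limma, 35 with a filter of 1 CPM in 6 libraries, 1 with the noncoding share as a covariate, 21 without animals 743 and 9144, 1 without animals 1746 and 3917, and 29 to 178 with 1 animal left out. The diet interaction, 27 genes as reported, called 49 without the replicate block, 163 with DESeq2, 55 without a filter, 55 with a fraction by week term, 41 with the noncoding share, and kept within 1.5 times with 1 animal left out. The cause of these moves was not tested. The covariate, the left-out pairs of animals and the count by promoters were chosen after seeing the data. By promoters in place of genes, ACAAAG stood in 16.8% for genes specific to the other cells.

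Signs turned in 5 named genes. Without animals 743 and 9144, which leaves animal 2474 alone at 5 weeks, the week interactions of Itgax and Fabp7 were -0.16 and 0.32. The fraction difference of Snhg6 was -0.51 without the same pair. That of Mpc1 was 2.98 without animals 1746 and 3917, and lay between -2.68 and 1.11 with 1 animal left out (1.06, 1.11 and 0.77 without 1746, 3917 and 8043). That of Bbc3 lay between -0.29 and 0.059 with 1 animal left out, positive only without 1746. Of 191 named fraction differences 171 kept their side of the threshold in every alternative, of 18 diet interactions 10, and of 26 week interactions 0. At these depths the size of a difference is not resolved for genes with a few counts in a pool.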

Other observations

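Further genes with a large difference toward microglia included receptors that restrain or steer myeloid cells. Siglecf, a sialic acid receptor, was at 36.0 to 111 CPM (median 62.0) in microglia and 0 to 1.04 CPM (median 0) in the other cells. Ptger4, a prostaglandin E receptor, was at 21.6 to 104 CPM (median 64.6) against 0 to 0.921 CPM (median 0.312). Il1rn, the natural antagonist of the interleukin 1 receptor, was at 16.7 to 86.8 CPM (median 49.5) against 0 to 0.624 CPM (median 0.230), beside the Il1b given above. Fgr, a kinase of the Src family in myeloid cells, was at 23.9 to 99.4 CPM (median 34.5) against 0 to 0.624 CPM (median 0). Msr1, a scavenger receptor for modified lipoproteins, was at 17.2 to 48.1 CPM (median 36.6) against 0 to 0.519 CPM (median 0.170) (6.98 ± 0.93). Siglecf, Ptger4, Il1rn and Fgr were chosen among genes without overlap between the fractions. Msr1, which came from a gene list, did not overlap either.

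Border macrophage genes were present in every microglia library. Pf4, a chemokine shared with platelets, was at 40.3 to 172 CPM (median 96.3) in microglia and 0.624 to 6.75 CPM (median 1.15) in the other cells, and Ms4a7, a membrane protein of border macrophages, at 9.18 to 65.9 CPM (median 38.7) against 0 to 0.726 CPM (median 0.400). Of the 6 haemoglobin and red cell genes 2 were tested and both were lower in microglia (22.2% of all genes tested were lower). On the other side, Gabbr2, a subunit of the GABA B receptor, was at 15.0 to 67.3 CPM (median 39.3) in the other cells, where the excess over microglia had a counting interval of 88.0 to 19481-fold.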
